A study of Mus musculus with 6 samples.

Results

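The genes described here are 51 members of the interferon response and of antigen presentation by class I molecules of the major histocompatibility complex (MHC): interferons and their receptors, kinases and transcription factors of the pathway, interferon-induced genes and class I genes. They were chosen by name, with the brightest probe set that is paired with exactly 1 gene symbol standing for each gene, and 47 of the 51 were measured, among 22180 genes in all. *Oas1a*, *Gbp2* and *H2-D1* lay only on probe sets shared with *Oas1g*, *Gbp2b* and *H2-Q2*, and *Ifi44* was not analysed here. Amygdala RNA of male mice on a C57BL/6N background, aged 10 to 15 weeks, was read on GeneChip Mouse Gene 2.0 ST arrays. One group was knockout for IP3K-A, the neuronal kinase encoded by *Itpka* that turns inositol trisphosphate into inositol tetrakisphosphate (KO), and the other was their wild-type littermates (WT). The labels name no treatment of the mice besides the genotype. Each group had 3 arrays, each of a tissue pool, and a pool holds RNA from several mice and from every cell type of the dissected tissue, so fewer cells of a type and less RNA per cell cannot be told apart. The sources do not settle how many mice went into a pool, and p-values measure the spread between pools.

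Values are log2 intensities after the authors' normalization, so that a difference of 1 is a doubling, and a change is KO minus WT on that scale. The arrays had medians from 6.49 to 6.52 and correlated with each other at r from 0.988 to 0.993. *Itpka* stood at 8.85, 8.90 and 8.96 in WT pools 1 to 3 and at 6.76, 6.95 and 6.96 in KO pools 1 to 3, a difference of −2.02 (standard error (SE) 0.08, adjusted p = 0.000261 from limma, a linear model with a variance estimate shared between genes). The groups were far apart, as labelled, although which part of the gene its probes read was not checked. Of 10 genes known from amygdala neurons, all were measured and 9 were above the median level of all genes. Markers of neighbouring tissue set some pools apart. All 8 measured choroid plexus markers were highest in KO pool 1, where their summed intensity was 10414 against 1409 to 2304 in the other pools, and 7 markers of striatal projection neurons summed to 9176 to 9991 in WT pools 1 and 2 and KO pool 3 against 6541 to 6911 in the others.

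Interferons are secreted alarm proteins. Type I interferons, the products of genes such as *Ifna4* and *Ifnb1*, bind a receptor of IFNAR1 and IFNAR2, whose kinases TYK2 and JAK1 phosphorylate STAT proteins such as STAT2, which joins IRF9 in a complex that binds the interferon-stimulated response element (ISRE) of target genes. Interferon gamma acts through IFNGR1 and IFNGR2 with JAK1 and JAK2, and its targets carry another element, the gamma-activated site (GAS). Target genes encode antiviral proteins and the machinery of class I presentation, in which proteasome subunits make peptides, TAP carries them into the endoplasmic reticulum and class I heavy chains display them at the surface. In the brain microglia, endothelial cells and neurons all respond to interferon, and class I molecules are also known at synapses.

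The letters GAAANNGAAA, the core of an ISRE, were searched on both strands of the RefSeq promoters (GRCm38.p6), windows of 300 bases with 250 before and 50 after each gene start. Of the measured members 40 had a promoter entry, 48 windows in all, and 15 of these 48 (31.3%) held at least 1 match, against 1131 of 32851 promoters (3.44%). Matches were found in 10 of 16 interferon-induced genes, 3 of 11 JAK, STAT and IRF genes, 1 of 7 ligands and receptors and 1 of 6 class I genes. The GAS letters TTCNNNGAA occurred in 12 of the 48 windows (25%), against 2726 of all promoters (8.30%). A match is a description of the sequence and not evidence that a factor binds there. The stretches below are those of 5 members whose values are given in full further on, and of 2 interferon-induced genes known for their response, *Ifit1* and *Isg15*. Capitals mark the matches, which read GAAA on one strand and TTTC on the other, and matches may overlap.
Stat4, chr1:52008123-52008172, plus strand: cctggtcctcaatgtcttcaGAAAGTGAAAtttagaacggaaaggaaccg
Ifitm3, chr7:141010715-141010744, minus strand: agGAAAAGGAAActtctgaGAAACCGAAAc
Gbp3, chr3:142559979-142560034, plus strand: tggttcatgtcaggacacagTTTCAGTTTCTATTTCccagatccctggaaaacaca
Ifit3, chr19:34583353-34583436, plus strand: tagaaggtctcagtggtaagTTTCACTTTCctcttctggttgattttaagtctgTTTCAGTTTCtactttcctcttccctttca
Ifna4, chr4:88841588-88841727, plus strand: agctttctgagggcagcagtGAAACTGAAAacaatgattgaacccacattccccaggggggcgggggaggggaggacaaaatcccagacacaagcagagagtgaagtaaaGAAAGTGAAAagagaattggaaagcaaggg
Ifit1, chr19:34640765-34640833, plus strand: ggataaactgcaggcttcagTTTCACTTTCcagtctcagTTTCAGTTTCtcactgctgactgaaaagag
Isg15, chr4:156200855-156200916, minus strand: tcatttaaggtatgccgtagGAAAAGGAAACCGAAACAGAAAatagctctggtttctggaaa
The first match began 97 bases before the start in Stat4, 45 in Gbp3, 156 in Ifit3, 208 in Ifna4, 104 in Ifit1 and 78 in Isg15, and 2 bases after the start in Ifitm3. Isg15 had 3 overlapping matches in a row.

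The interferon and class I genes as a whole differed little between genotypes. Of the 47 measured members 23 had a higher and 24 a lower mean in KO, with a median difference of −0.003 (all genes −0.0002) and a range from −0.33 to 0.33. No member passed an adjusted p under 0.05 with limma, where 2 of 22180 genes (0.00902%) did, and the smallest adjusted p among members was 0.729. Without adjustment 5 members (10.6%) were under a p of 0.05 by limma, beside 6.52% of all genes, and 2 (4.26%) by the Student's test that the study's methods name, beside 6.38%. At the thresholds of those methods, more than 1.2-fold with a p under 0.1 before adjustment, limma took 3 members (*Stat4* higher, *Ifitm3* and *Gbp3* lower) against 3.01% of all genes, and the methods' own test took 2 (*Stat4* and *Ifitm3*) against 1.82%. Of the 5 members under 0.05, 1 was higher (*Stat4*) and 4 were lower (*Ifitm3*, *Usp18*, *Ifit3* and *Gbp3*), where 3.16% of all genes were higher and 3.36% lower at this threshold. The pools of the genotypes did not overlap in 6 members, 3 higher and 3 lower, or 12.8% of the members beside 13.7% of all genes. Without KO pool 1, the pool rich in choroid plexus markers, 4 members were past the thresholds of the methods, beside 3.23% of all genes in the same fit, and 6 were under 0.05, beside 4.99%.

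Of these genes 25 were measured closely enough to bound a difference, and the interferon-induced ones less often than those of the other roles. The 95% interval of the change lay within a 1.2-fold change in either direction for 25 of the 47 members (53.2%, all genes 49.7%), and the median of its half-width was 0.18. Among the 21 interferon-induced genes this held for 7 (33.3%). The estimate itself was under 0.1 in size for 32 members (68.1%, all genes 66.9%). The median standard deviation (SD) over members was 0.08 among WT pools and 0.08 among KO pools. Of the members 27 were below the median level of all genes and 7 below its lower quartile, where an array separates signal from background less well. The 21 interferon-induced genes accounted for 17 of those below the median level and 6 of those below the lower quartile. Probe intensity also depends on probe sequence, so levels of different genes are not ranked here.

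**Figure D1:**
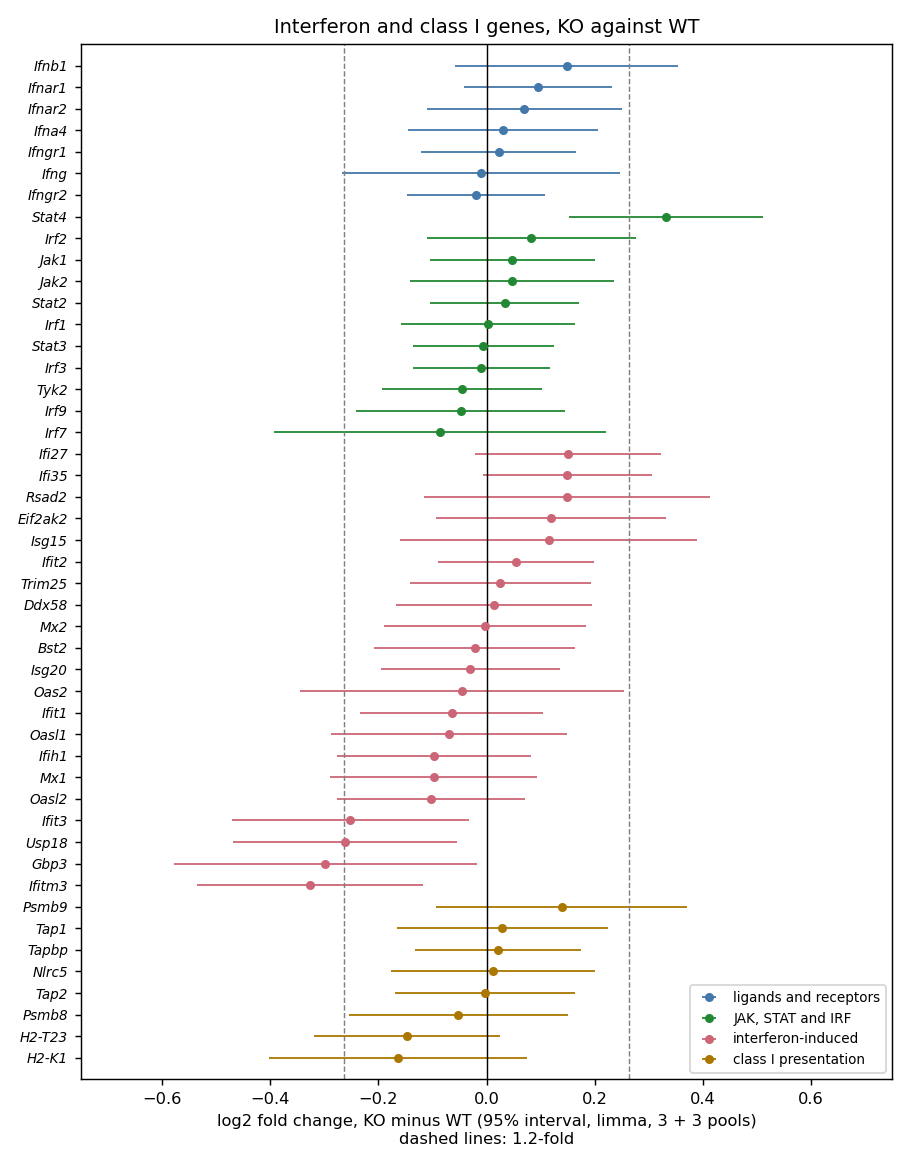
Change in each of the 47 measured genes, KO minus WT in log2 units (points), with the 95% interval from limma over 3 WT and 3 KO pools (lines), coloured by role, and with dashed lines at a 1.2-fold change. *Stat4* at 0.33 and 4 interferon-induced genes at −0.25 to −0.33 have intervals on one side of 0, and the other 42 intervals include it.

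Ligands and receptors differed little. Of 7 genes 5 had a higher and 2 a lower mean in KO, with a median difference of 0.03, none past a threshold, and 5 intervals within a 1.2-fold change. *Ifna4*, one of the alpha interferons, was 8.50, 8.57 and 8.67 in WT pools 1 to 3 and 8.67, 8.51 and 8.66 in KO pools 1 to 3. The groups covered the same range, and the difference was 0.03 (SE 0.07, 95% interval −0.14 to 0.21, adjusted p = 0.943 from limma). Its sign turned with array weights (−0.00) and without WT pool 1 (−0.01). The alpha interferon genes are near-identical copies in a cluster, and their probes may read each other's transcripts. *Ifnb1*, the beta interferon, was 4.46, 4.33 and 4.23 in WT and 4.57, 4.36 and 4.54 in KO, low in every pool and overlapping, with a difference of 0.15 (SE 0.09, adjusted p = 0.767 from limma). *Ifng*, the gamma interferon made by T and NK cells, differed by −0.01 (SE 0.11), with KO pool 2 highest at 6.20 and KO pool 3 lowest at 5.81.

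The receptor chains were well above the median level and varied little. *Ifnar1* was 9.06, 9.13 and 9.07 in WT and 9.18, 9.23 and 9.14 in KO. Every KO pool was above every WT pool, by a small difference of 0.09 (SE 0.06, adjusted p = 0.778 from limma). Its partner *Ifnar2* differed by 0.07 (SE 0.08) with overlapping pools. *Ifngr2*, the signal-carrying chain of the gamma receptor, was 9.97, 9.98 and 9.93 in WT and 9.93, 9.95 and 9.94 in KO. All 6 pools lay within a narrow band, with a difference of −0.02 (SE 0.05, 95% interval −0.15 to 0.11), and the ligand-binding chain *Ifngr1* differed by 0.02 (SE 0.06).

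Among the kinases and transcription factors 6 of 11 had a higher and 5 a lower mean in KO, with a median difference of 0.003, and 8 of 11 intervals lay within a 1.2-fold change. The kinase *Jak1*, which serves both receptor types, was 10.30, 10.28 and 10.25 in WT and 10.39, 10.36 and 10.23 in KO, overlapping, with a difference of 0.05 (SE 0.07). *Tyk2*, the kinase on IFNAR1, was 7.96, 8.03 and 8.10 in WT and 7.98, 8.03 and 7.94 in KO, a difference of −0.05 (SE 0.06), and *Jak2* differed by 0.05 (SE 0.08). Of the genes that make the ISRE-binding complex, *Stat2* differed by 0.03 and *Irf9* by −0.05. *Stat3*, better known for signals of the interleukin-6 family, differed by −0.01, and the pools of *Irf3*, the factor that first switches on *Ifnb1*, lay within 7.62 to 7.66. *Irf1* (0.00), the activator of class I genes, and *Irf2* (0.08), its antagonist, overlapped between genotypes. *Irf7*, which amplifies the alpha interferons, had the widest spread of the group, from 5.71 to 6.25 in WT alone, around a difference of −0.09 (SE 0.13).

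*Stat4*, the STAT of interleukin-12 and type I interferon signals in lymphocytes, stood apart from this group. It was 5.76, 5.63 and 5.56 in WT pools 1 to 3 and 5.97, 6.07 and 5.91 in KO pools 1 to 3. Its mean of 5.81 was below the median level of all genes (7.01) and just above the lower quartile (5.71), and WT pools 2 and 3 were below that quartile. The lowest KO pool was above the highest WT pool, and the difference was 0.33 (SE 0.08, 95% interval 0.15 to 0.51), a 1.26-fold higher level. After adjustment over all probe sets the p was 0.729 in limma, and the exact permutation test gave 0.1, the smallest p that 3 pools against 3 allow. With any 1 pool left out the difference was between 0.29 and 0.39, and it passed the thresholds of the methods each time. Of 7 T and NK cell markers measured, out of 10 listed, 5 were lower and 2 higher in KO and none was under an unadjusted p of 0.05. Their summed intensity was 520 in WT pool 2, the highest pool in 6 of the 7, and overlapped otherwise, with 439 and 426 in WT pools 1 and 3 and 414 to 443 in KO. The part of these cells in the *Stat4* values was not tested.

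Of the 21 interferon-induced genes 13 had a lower and 8 a higher mean in KO, with a median difference of −0.03, and 7 intervals lay within a 1.2-fold change. By limma 4 of the 21 were under an unadjusted p of 0.05, all lower, where 3.36% of all genes were lower and 3.16% higher. These 4 were *Ifitm3*, *Gbp3*, *Usp18* and *Ifit3*, with no adjusted p under 0.729. By the Student's test of the methods only *Ifitm3* among them was under 0.05. *Ifitm3*, a membrane protein that blocks virus entry, was 8.24, 8.30 and 8.11 in WT and 7.79, 7.83 and 8.05 in KO. KO pool 3 came close to WT pool 3 but the groups did not overlap, and the difference was −0.33 (SE 0.09, 95% interval −0.54 to −0.12, adjusted p = 0.729 from limma), a 1.25-fold lower level. With any 1 pool left out it was between −0.41 and −0.28, past the thresholds of the methods each time.

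*Gbp3*, a guanylate-binding protein induced by interferon gamma, was 5.23, 5.34 and 5.70 in WT and 5.08, 5.21 and 5.09 in KO. Its mean of 5.28 was below the lower quartile of all genes (5.71). The difference of −0.30 (SE 0.12, adjusted p = 0.738 from limma) owed much to WT pool 3, without which it was −0.16, and it was not past the thresholds there, without KO pool 1, or in the methods' own test. *Usp18*, which takes ISG15 off proteins and damps the receptor, was 6.47, 6.75 and 6.59 in WT and 6.45, 6.30 and 6.28 in KO. The groups nearly touched at WT pool 1 and KO pool 1, and the difference of −0.26 (SE 0.09, adjusted p = 0.729 from limma) was just under a 1.2-fold change. Without WT pool 1 it was −0.33, without WT pool 3 −0.27 and without KO pool 1 −0.31, each past the thresholds. Without WT pool 2 it was −0.19, and it was not past them there or without KO pool 2 or KO pool 3. *Ifit3*, a partner of IFIT1 in binding viral RNA, was 7.87, 7.62 and 7.77 in WT and 7.65, 7.41 and 7.45 in KO. One KO pool lay among the WT pools, and the difference was −0.25 (SE 0.09, adjusted p = 0.729 from limma), with more than a 1.2-fold change without WT pool 2 or without KO pool 1. Without WT pool 1 the difference was −0.19.

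**Figure D2:**
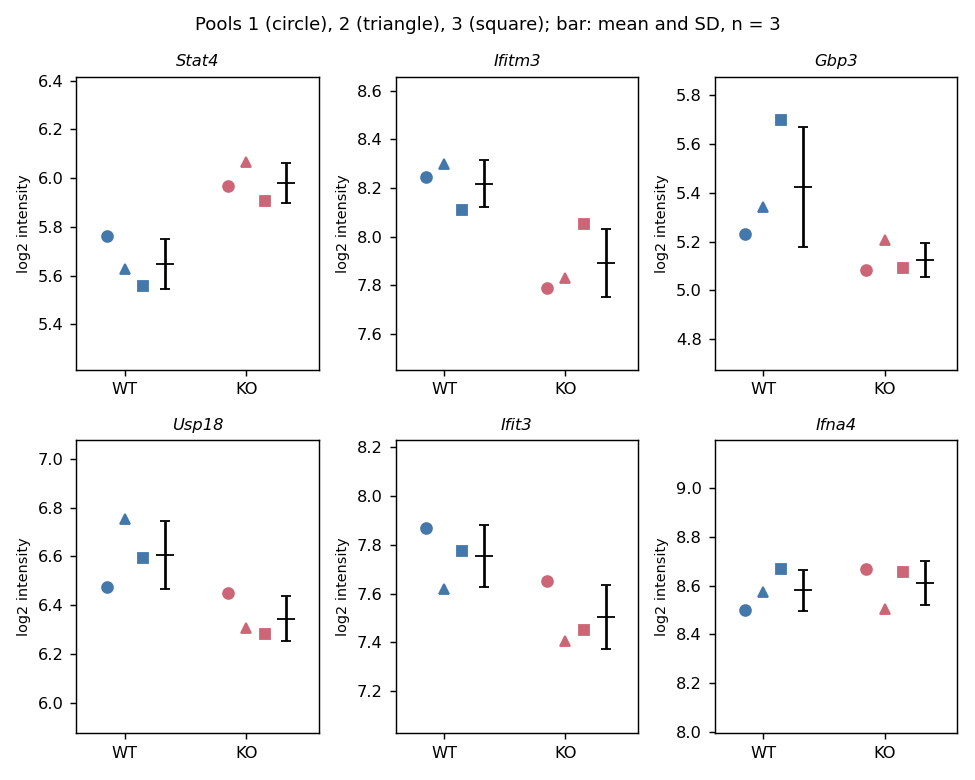
Log2 intensity of 6 genes in each of 3 WT (blue) and 3 KO (red) pools, with the group mean and SD as bars; the panels share a span of 1.2 log2 units but not its position. *Stat4*, *Ifitm3*, *Gbp3* and *Usp18* separate the genotypes, *Ifit3* overlaps in 1 KO pool, and *Ifna4* has the same range in both.

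The other interferon-induced genes had smaller estimates. This follows from the choice of those 4 genes by their p, and the difference between the 2 sets was not tested. *Ifit1*, whose stretch above holds a pair of matches like that of *Ifit3*, differed by −0.06 (SE 0.07), and *Ifit2* by 0.05 (SE 0.06). *Isg15*, the ubiquitin-like protein that USP18 removes, was 4.76, 4.97 and 4.99 in WT and 4.79, 5.06 and 5.21 in KO, overlapping, with a difference of 0.11 (SE 0.12). The antiviral GTPase genes *Mx1* and *Mx2* differed by −0.10 and −0.00, and *Rsad2* (0.15), the radical SAM enzyme viperin, was low in WT pool 2 alone at 5.71. The oligoadenylate synthetase genes *Oas2*, *Oasl1* and *Oasl2* differed by −0.04, −0.07 and −0.10. The RNA sensors *Ifih1* (MDA5) and *Ddx58* (RIG-I) differed by −0.10 and 0.01, and *Trim25*, which ubiquitinates RIG-I, by 0.03. *Eif2ak2*, the RNA-activated kinase PKR, differed by 0.12, the nuclease *Isg20* by −0.03 and tetherin, *Bst2*, by −0.02. All of these overlapped between genotypes. None was under an unadjusted p of 0.05, since the genes that were had been set apart above.

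On the higher side stood *Ifi35* and *Ifi27*. *Ifi35* was 6.81, 6.73 and 6.67 in WT and 6.82, 6.94 and 6.91 in KO, narrowly apart, with a difference of 0.15 (SE 0.07, adjusted p = 0.741 from limma). Its second, dimmer probe set overlapped between groups and gave 0.07 (SE 0.07). *Ifi27* was 7.08, 7.05 and 7.19 in WT and 7.35, 7.26 and 7.16 in KO, overlapping at WT pool 3 and KO pool 3, and differed by 0.15 (SE 0.07).

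Added up on the linear scale, the interferon-induced genes had an intensity of 1952 to 2003 in WT and 1819 to 1904 in KO, without overlap. The gap rested on *Ifitm3*, and without it the sums were 1665 to 1688 and 1591 to 1673, and these overlapped. Markers of other cell types are given beside these values. Of 9 measured microglia markers out of 10 listed, 4 had a higher and 5 a lower KO mean, with a summed intensity of 3314 to 3337 in WT and 3038 to 3239 in KO. *C1qb*, a complement gene of microglia, differed by −0.33 (adjusted p = 0.729 from limma), and without it the sums overlapped (2292 to 2471 and 2365 to 2409). The pools were apart in 3 of the 9, all lower: *C1qb*, *C1qa* (−0.12) and *Siglech* (−0.08), beside 13.7% of all genes in either direction. The 4 higher markers were *P2ry12* (0.13), *Itgam* (0.03), *Tmem119* (0.03) and *Cx3cr1* (0.02), with overlapping pools. Of 10 endothelial markers, all measured, 7 were lower and 3 higher, with sums of 2040 to 2135 in WT and 2033 to 2202 in KO. Of these 10, 3 were under an unadjusted p of 0.05 by limma, with pools apart, beside 6.52% of all genes under 0.05. *Vwf*, the von Willebrand factor, was at −0.38 (past the thresholds of the methods). In the other direction were the angiopoietin receptor *Tek* at 0.17 and the cadherin *Cdh5* at 0.16. With *Slco1a4* (0.15) the pools were apart in 4 of the 10, beside 13.7% of all genes. All 5 measured blood markers, out of 10 listed, were lower in KO, with sums of 191 to 197 and 160 to 179, and the neutrophil gene *Ly6g* differed by −0.64 (adjusted p = 0.584 from limma). *Camp* differed by −0.25 (adjusted p = 0.729 from limma), with pools apart as in *Ly6g*. Without *Ly6g* the blood sums overlapped (156 to 165 and 140 to 158). No marker reads 0 on an array, and the part of any of these cells in the values of *Ifitm3* or the others was not tested.

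The 8 genes of class I presentation differed little, with as many higher as lower (4 each), a median difference of 0.005, no gene past a threshold and 5 intervals within a 1.2-fold change. The heavy chain *H2-K1* was 7.70, 7.72 and 7.58 in WT and 7.45, 7.35 and 7.72 in KO. KO pool 3 reached the highest WT value while the other KO pools were below all of them, and the difference was −0.16 (SE 0.10, adjusted p = 0.778 from limma). Without KO pool 3 it was −0.27 and past the thresholds of the methods, and without KO pool 2 it was −0.08. It was past them with no other pool left out. *H2-T23*, the nonclassical heavy chain Qa-1, was 6.23, 6.27 and 6.33 in WT and 6.24, 6.02 and 6.13 in KO. It overlapped by KO pool 1 only and differed by −0.15 (SE 0.07, adjusted p = 0.741 from limma). The peptide transporter genes *Tap1* and *Tap2* differed by 0.03 (SE 0.08) and −0.00 (SE 0.07). *Tapbp*, tapasin, which bridges the transporter and the heavy chain, was 8.19, 8.17 and 8.30 in WT and 8.18, 8.29 and 8.26 in KO, a difference of 0.02 (SE 0.07). Its second, dimmer probe set gave −0.15 (SE 0.09), and the mean of both −0.06, so that its sign turned with the probe set.

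Of the inducible proteasome subunits *Psmb9* was 5.51, 5.89 and 5.66 in WT and 5.85, 5.86 and 5.77 in KO, where WT covered more than the whole KO range. Its difference was 0.14 (SE 0.10, adjusted p = 0.800 from limma), beside −0.05 (SE 0.09) for *Psmb8*. *Nlrc5*, the transactivator of class I genes, differed by 0.01 (SE 0.08). The probe set shared by *H2-D1* and *H2-Q2* was 6.60, 6.58 and 6.63 in WT and 6.52, 6.51 and 6.52 in KO. Here the groups were apart by −0.09 (SE 0.06, adjusted p = 0.825 from limma over all probe sets), and heavy chains are similar enough in sequence that their probes may share transcripts.

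**Figure D3:**
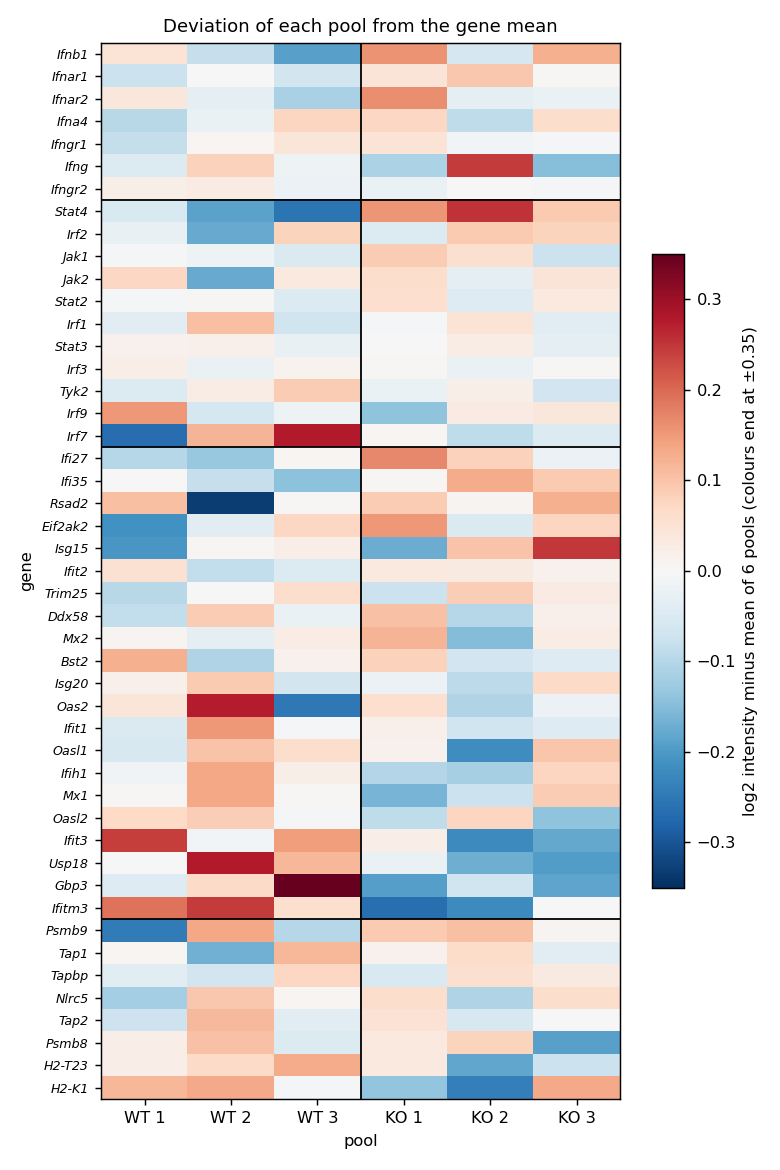
Log2 intensity of each of the 47 genes in each pool minus the gene's mean over the 6 pools, with genes in rows by role and pools in columns; colours end at ±0.35, which 1 value exceeds. No role group is of one colour on either side of the genotype line, and WT pool 2 is the highest pool in 16 of the 47 rows.

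Single pools also set these genes apart from their means. WT pool 2 was the highest pool in 16 of 47 members (34.0%, all genes 23.7%), in 9 of the 21 interferon-induced genes and in 5 of the 8 class I genes. KO pool 2 was the lowest in 7 of the 21 interferon-induced genes (33.3%, all genes 13.0%). The median deviation of the interferon-induced genes from their own means was 0.07 in WT pool 2 and −0.07 in KO pool 2, and 0.00 to 0.02 in the other 4 pools. Over all genes WT pool 2 was also the pool most often highest and most often lowest (21.4%). Its mean over all genes was 7.08, against 7.06 to 7.07 in the other pools. The T and NK cell markers had their highest sum in WT pool 2, 520 against 414 to 443 in the other 5 pools. It was the highest pool in 3 of 5 blood, 4 of 9 microglia and 4 of 7 striatal markers. Among endothelial markers it was highest in 2 of 10, and among choroid plexus markers in 0 of 8. Whether any of these go together was not tested.

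The members with ISRE letters in the promoter were spread over both directions. The KO mean was the higher one in 8 of these 15 and the lower one in 7, with a median difference of 0.01 and a range from −0.33 to 0.33, beside 13 higher and 12 lower, a median of 0.003 and a range from −0.16 to 0.15 in the 25 members with an entry and no match. Under an unadjusted p of 0.05 by limma were 4 of the 15 with a match, 0 of the 25 without and 6.52% of all genes. These 4 were *Stat4*, *Ifitm3*, *Ifit3* and *Gbp3*, and they did not share a direction. All but *Stat4* belong to the interferon-induced genes, of which 10 of 16 held a match whatever their change. *Usp18*, also under 0.05, had no promoter entry and was not searched. A link between the letters and the change was not tested. By position, 8 members lie on chromosome 17, 7 of them the class I genes other than *Nlrc5*, and the only member on chromosome 2, where *Itpka* lies, was *Ifih1* at −0.10. The class I gene *B2m* was not among the members.

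Further genes of the pathway, 130 by name and 114 measured, also differed little. In KO 48 had a higher and 66 a lower mean, with a median difference of −0.03, and none passed an adjusted p under 0.05 (smallest 0.729). At the thresholds of the methods 1 was taken by limma and 0 by the methods' own test. That gene was *Ifna11*, an alpha interferon at the bottom of the array's range, at 2.73, 3.18 and 3.12 in WT and 2.71, 2.59 and 2.83 in KO, overlapping, with a difference of −0.30 (SE 0.13). Under an unadjusted p of 0.05 were 8 genes, 2 higher and 6 lower, and in 14 genes the pools did not overlap, 6 higher and 8 lower. These shares of the 114 genes, 7.02% and 12.3%, were close to those of all genes, 6.52% and 13.7%. By role, 20 of 47 other interferon-induced genes were higher and 27 lower, 5 of 13 sensors and adaptors were higher and 8 lower, and 7 of 13 class II genes were higher and 6 lower.

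The 8 genes are named here after their values were seen, as a description, since their number was near the share of all genes. *Uba7*, the enzyme that activates ISG15 for conjugation, was 6.29, 6.36 and 6.16 in WT and 6.04, 6.03 and 6.06 in KO, apart by −0.23 (SE 0.07). The KO pools lay within a very narrow range below all WT pools. *Psmb10*, the third of the inducible proteasome subunits, was 8.98, 9.09 and 9.07 in WT and 8.78, 8.94 and 8.85 in KO, a difference of −0.19 (SE 0.07). *H2-Q4*, a nonclassical heavy chain, differed by −0.21 (SE 0.07), from 6.74 to 6.52 on average. *Ctss*, the microglial protease that trims the class II invariant chain, was 8.96, 9.08 and 8.95 in WT and 8.81, 8.72 and 8.82 in KO, a difference of −0.22 (SE 0.07). Microglia markers, given above, went in both directions, and the part of these cells in the *Ctss* values was not tested. *Rfxank*, a subunit of the factor RFX that binds class II promoters, differed by −0.16 (SE 0.06), and *Slfn2*, a regulator of lymphocyte quiescence, by −0.19 (SE 0.06). Higher in KO were *Pnpt1*, a mitochondrial RNA exonuclease (0.18, SE 0.06), and *H2-DMb2*, a chain of the class II peptide editor, with WT pools at 5.26, 5.20 and 5.37 and KO pools at 5.48, 5.48 and 5.50 (0.21, SE 0.06). In each of the 8 the pools of the genotypes were apart, the adjusted p was 0.729 from limma, and the size was under a 1.2-fold change.

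**Figure D4:**
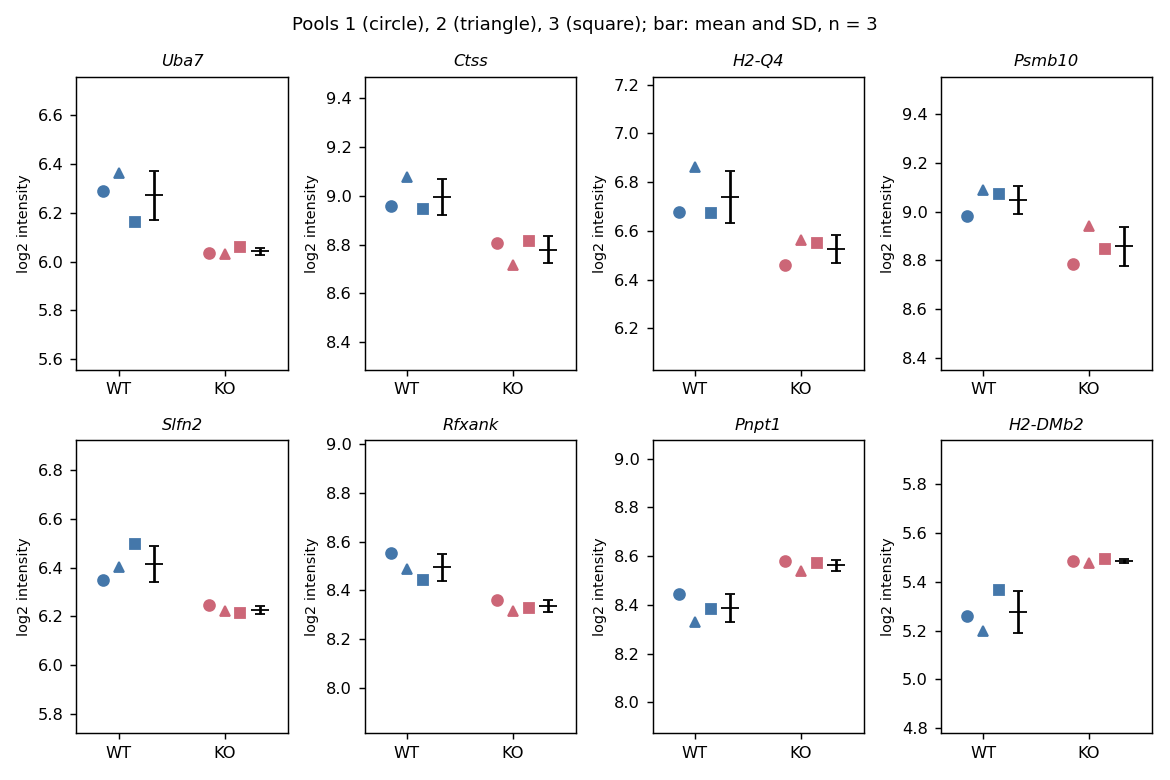
Log2 intensity in each of 3 WT (blue) and 3 KO (red) pools for the 8 other pathway genes under an unadjusted p of 0.05, with the group mean and SD as bars; the panels share a span of log2 units but not its position. The genes were chosen for their p, the pools do not overlap in any panel, and differences run from −0.23 (*Uba7*) to 0.21 (*H2-DMb2*).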

How the data were processed

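Arrays (GeneChip Mouse Gene 2.0 ST) of 3 WT and 3 KO amygdala pools were used. The deposited table holds log2 intensities, for which the authors used RMA, which corrects background, normalizes quantiles and summarises probes, with GCOS, per the submitters' notes and with no version given. No raw probe file was used, so the authors' normalization stands. Small intensities are compressed by background, and array number limits the precision. KO minus WT was fitted by limma 3.58.1 (lmFit, eBayes; R 4.3.3) with no covariate on 23521 probe sets with exactly 1 symbol (1820 with several and 16004 unlisted were left out), with Benjamini-Hochberg adjustment over all of them. The table has 41345 probe sets, and 107 held values identical to another's. The fold and p thresholds and the Student test of the methods were also applied. Members and lists, including marker lists, were chosen with earlier results of these data known. Genes with values in every pool are *Ifna4*, *Stat4*, members past the methods' thresholds or under an unadjusted p of 0.05, and in each role the member with the smallest p in each direction and the brightest. A few more were named after their values were seen. Other pathway genes were named by rule where past the methods' thresholds, and the rest of those named were chosen after their values were seen. Promoters came from RefSeq, and 2 listed genes were measured under renamed symbols. Alternatives were the Student test, an intensity trend with robust estimation, median centring, repeated quantile normalization, a filter at the median level, all probe sets, a replicate block, array weights, identical probe sets counted once, the mean over probe sets, and each pool left out. The fit was tested on simulated data. Same-numbered pools deviated together at r = −0.03, 0.09 and −0.01, so numbers were not taken as pairs. Figures were drawn with matplotlib 3.10.9.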

Additional observations from a re-analysis of the deposited data

How the results depend on the processing

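Under 16 alternatives 26 of the 47 members kept the sign of their difference and 21 turned in at least 1, and of the 3 members past the thresholds of the methods only *Stat4* and *Ifitm3* stayed past them in every alternative that measured them. *Ifit3* passed with array weights and without WT pool 2 or KO pool 1. Probe sets under an adjusted p of 0.05 numbered 2, against 0 with the Student test (1510 at an unadjusted p under 0.05), 10 with a trend and robust estimation, 1 above the median level, 50 over all probe sets, 7 with array weights, 1 with a replicate block, and 1 to 6 with a pool left out. The replicate block changed no call of a named gene, and the same 3, 5 and 6 members were counted in number past the thresholds, under 0.05 and without overlap. Only 20 members were above the median level, of which 1 passed the thresholds, 3 were under 0.05 and 2 did not overlap, with a median difference of 0.0219. Members under 0.05 were 2 with the Student test and 3 to 6 with a pool left out, those past the thresholds 3 to 4, and those without overlap 8 to 12, since fewer pools overlap less. Of all genes 6.38% were under 0.05 with the Student test. Without KO pool 1, 4.99% were under 0.05 and 3.23% past the thresholds. The shares of all genes in the other alternatives are not given here, so the counts of this paragraph are not read as results about the members. The members' median was −0.01 to 0.01 with a pool left out and 0.01 after centring or repeated quantile normalization. *Ifna4* turned to −0.00442 with array weights and ran from −0.0101 to 0.0832 with a pool left out, and *Tapbp* ran from −0.00456 to 0.0625 and turned to −0.0620 as the mean of its probe sets; the cause was not tested. *Ifna11* was lost with the Student test and without WT pools 2 or 3 or KO pools 1 or 2, and *Uba7* passed without WT pool 3. With 3 pools a group, half-widths near 0.18 mean that differences well under a 1.2-fold change could not be told from 0.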

Other observations

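The remaining probe sets that carry members only together with a near-identical gene did not separate the genotypes. The probe set of *Gbp2* and *Gbp2b* was 6.54, 6.57 and 6.45 in WT pools 1 to 3 and 6.54, 6.35 and 6.59 in KO pools 1 to 3, a difference of −0.03 (SE 0.09). That of *Oas1a* and *Oas1g* was 5.26, 4.95 and 5.09 in WT and 5.02, 4.93 and 5.64 in KO, where KO pool 3 was the highest pool, with a difference of 0.09 (SE 0.20). *Ly6e*, a membrane protein induced by type I interferon and a further gene of the pathway list, was 10.92, 10.99 and 10.95 in WT and 10.58, 10.89 and 10.80 in KO. Its pools were apart by −0.20 (SE 0.09, adjusted p = 0.738 from limma). *Ly6e* was named after its values were seen, and its unadjusted p was 0.0559 from limma. Other genes of that list also had pools apart at an unadjusted p over 0.05. *Stat5b* (0.11), *Pias1* (0.09), *Herc6* (0.07) and *Pdia3* (0.13) were higher in KO, and *Znfx1* (−0.11) was lower. Of these *Pdia3* and *Znfx1* lie on chromosome 2, as does *Itpka*.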
